A study of Mus musculus with 16 samples.

Results

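Mitochondrial ribosomal protein genes, the Mrpl genes of the large subunit and the Mrps genes of the small subunit, were examined in gastrocnemius muscle of high-fat fed mice with and without deletion of Foxo1, Foxo3 and Foxo4. A gene was included if a probe set carried a single symbol beginning with Mrpl or Mrps and lay above its array's median in at least 8 of 16 arrays, and the brightest such probe set stood for the gene. This gave 68 genes, 42 of the large and 26 of the small subunit, of 13601 genes tested. The array carried 78 symbols of this kind, 49 large and 29 small, which are also the 78 protein-coding genes so named in RefSeq. Of the other 10, 3 were under the filter (Mrpl27, above the median in 1 array, and Mrps14 and Mrps36, in 0), and Mrpl30, Mrpl33, Mrpl41, Mrpl43, Mrpl44, Mrpl53 and Mrps6 were represented only by probe sets shared with another gene. The filter did not select the members by group, since each of the 68 lay above the array median in all 16 arrays.

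The 16 mice were FVB/n males, fed a high-fat diet for 8 weeks and killed when 16 weeks old, and the muscle of each was measured on 1 Affymetrix array. All were homozygous for floxed alleles of Foxo1, Foxo3 and Foxo4, and all received 3 injections of polyinosine:cytidine (pI:pC), an RNA mimic that induces interferon. The deletion group (n = 8) carried Mx1-Cre, a recombinase under an interferon-responsive promoter that is not restricted to 1 cell type. The control group (n = 8) consisted of Cre-negative littermates, which the labels call wild type although they carry the same floxed alleles. The labels describe the deletion as directed at the endothelium. Because every deletion mouse and no control carried Cre, its own effects and the deletion's cannot be told apart. Whole-muscle transcript levels of the targeted genes differed by 0.07 log2 units for Foxo1 (SE 0.12), 0.50 for Foxo3 (SE 0.14) and -0.24 for Foxo4 (SE 0.10). Their limma adjusted p-values were 0.804, 0.0762 and 0.236, so 0 of the 3 passed the threshold of 0.05.

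The mitochondrial ribosome translates the few proteins encoded by mitochondrial DNA, all of them core subunits of the respiratory chain and ATP synthase. Its RNAs come from mitochondrial DNA, but its proteins come from nuclear genes, are made in the cytosol and are imported. The small subunit binds and decodes the messenger RNA and the large subunit forms the peptide bond. Many of the proteins have bacterial counterparts, and others are found only in mitochondria. Muscle, with its dense mitochondria, expresses these genes broadly. All values below are log2 expression made by the authors with RMA, and differences are deletion minus control, so that -1 would be a halving. RMA brings the probe intensities of the arrays to a common distribution, although medians of the deposited probe set values still ran from 4.43 to 4.61. Only levels relative to the other transcripts were therefore compared. Each probe set has its own brightness, and levels of different genes were therefore not ranked. In bulk muscle RNA, fewer cells of a type and less RNA per cell cannot be told apart.

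The regions just upstream of the transcription start are shown for the 5 members with the smallest p-values in the comparison and for the member with the largest difference in the other direction, because these are the genes whose values are described in most detail. Each is the 150 bases before the annotated start, read on the gene's strand, from RefSeq on GRCm38.p6. That assembly is of C57BL/6J and not of FVB/n. Capitals mark matches to the ETS-type motif CCGGAAG, to which GABP, also called nuclear respiratory factor 2, binds, or to the NRF-1 motif GCGCNTGCG, in either direction.
Mrps22, chr9:98601680-98601829, minus strand: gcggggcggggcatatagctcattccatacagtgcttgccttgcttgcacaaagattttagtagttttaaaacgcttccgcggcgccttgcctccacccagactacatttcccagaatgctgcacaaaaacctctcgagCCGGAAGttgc
Mrpl49, chr19:6057756-6057905, minus strand: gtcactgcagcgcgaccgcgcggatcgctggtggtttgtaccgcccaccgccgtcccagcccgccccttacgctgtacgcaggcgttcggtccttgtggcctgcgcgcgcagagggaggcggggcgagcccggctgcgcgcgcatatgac
Mrpl42, chr10:95501950-95502099, minus strand: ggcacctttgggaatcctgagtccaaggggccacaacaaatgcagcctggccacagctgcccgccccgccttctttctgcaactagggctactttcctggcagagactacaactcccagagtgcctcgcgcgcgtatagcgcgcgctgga
Mrps15, chr4:126046778-126046927, plus strand: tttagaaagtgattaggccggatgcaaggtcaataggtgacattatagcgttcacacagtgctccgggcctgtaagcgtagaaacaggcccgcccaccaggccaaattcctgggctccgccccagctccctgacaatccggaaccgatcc
Mrpl39, chr16:84735245-84735394, minus strand: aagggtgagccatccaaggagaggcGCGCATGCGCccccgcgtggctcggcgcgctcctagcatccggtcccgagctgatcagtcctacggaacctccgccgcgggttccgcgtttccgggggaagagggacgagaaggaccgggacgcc
Mrpl23, chr7:142532882-142533031, plus strand: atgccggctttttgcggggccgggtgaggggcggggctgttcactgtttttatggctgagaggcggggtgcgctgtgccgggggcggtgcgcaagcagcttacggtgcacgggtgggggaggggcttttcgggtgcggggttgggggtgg
Mrps22 held an ETS match from position -11, Mrpl39 held an NRF-1 match from position -125, both counted from the start, and in the printed part of the other 4 neither motif was found.

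Promoter windows of 300 bases, from 250 before to 50 after the start, were available for 59 of the 68 members, 36 large and 23 small. Regulators of nuclear genes for mitochondrial proteins include NRF-1, GABP and YY1. The ETS-type motif CCGGAAG occurred on either strand in 22 windows (37.3%), against 17.7% of 10636 genes tested and 9.93% of 27025 genes in the whole table. It was found in 11 of 36 large subunit genes (30.6%), among them Mrpl58 and Mrpl22, and in 11 of 23 small subunit genes (47.8%), among them Mrps16 and Mrps12. For NRF-1 the motif GCGCNTGCG occurred in 15 members (25.4%), against 13.6% of the genes tested. For YY1 the motif AANATGGCG occurred in 10 (16.9%), against 5.19%. At least 1 of the 3 was present in 38 members (64.4%) and in 31.2% of the genes tested. The forkhead motif GTAAACA, the core that FoxO factors bind, was present in 1 member, Mrpl40 (1.69%), against 2.97% of the genes tested. TATAAA was found in 5 members (8.47%), against 9.43%. Median GC content was 58.3% in the members and 60.3% in the genes tested. The median difference between the groups was -0.02 in the 22 members with the ETS-type motif and -0.05 in those without it. For NRF-1 the medians were -0.049 with and -0.041 without the motif, and for YY1 -0.050 and -0.041. Each motif was searched on its own on both strands, so that matches of different motifs may overlap. These counts describe the letters in the windows and say nothing of binding.

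No mitochondrial ribosomal protein gene differed between the groups past the threshold, a limma adjusted p under 0.05 over all genes tested. Of the 68 members 0 were higher and 0 were lower by this rule, where 1.53% of all genes tested were higher (208 of 13601) and 0.301% were lower (41 of 13601). The smallest adjusted p of a member was 0.141, for Mrps22. At an unadjusted p under 0.05, 5 members were lower (7.35%) and 0 were higher, against 6.82% of all genes lower and 10.5% higher. On the deposited scale the share of members that were lower at this level was thus near the background share. With arrays centred 11 members were lower at this level (16.2%), against 13.7% of all genes, and after quantile normalization 10 (14.7%), against 9.51%. In 0 members did the 2 groups of mice not overlap, against 0.353% of all genes (48 of 13601).

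The differences were small and most had the same sign. Of the 68 members 48 read lower in the deletion mice (70.6%), against 49.8% of all genes. With each array centred on the median of the genes tested the number was 61 (89.7%, against 64.9% of all genes), and with quantile normalization it was 56 (82.4%, against 56.4%). The median difference was -0.04, a fold of 0.972, and the median over all genes was 0.00075. With arrays centred these medians were -0.093 and -0.052, and after quantile normalization -0.073 and -0.020. The differences ran from -0.19 in Mrps22 to 0.14 in Mrpl23, folds of 0.877 and 1.10, and 73.5% of all genes lay within this range. The median SE of a member was 0.078. The 95% confidence interval lay within 0.5 log2 units of 0 in all 68 members. Its most extreme bounds were -0.42 in Mrpl46, a fold of 0.749, and 0.31 in Mrpl23, a fold of 1.24. The genes so named that were not members leaned the other way. On the deposited values Mrpl30 and Mrps36 read lower in the deletion mice. Mrpl27, Mrpl33, Mrpl41, Mrpl43, Mrpl44, Mrpl53, Mrps6 and Mrps14 read higher. Their probe sets were dim or shared with another gene and were not in the main comparison, so the sign count holds for the members only.

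**Figure D1:**
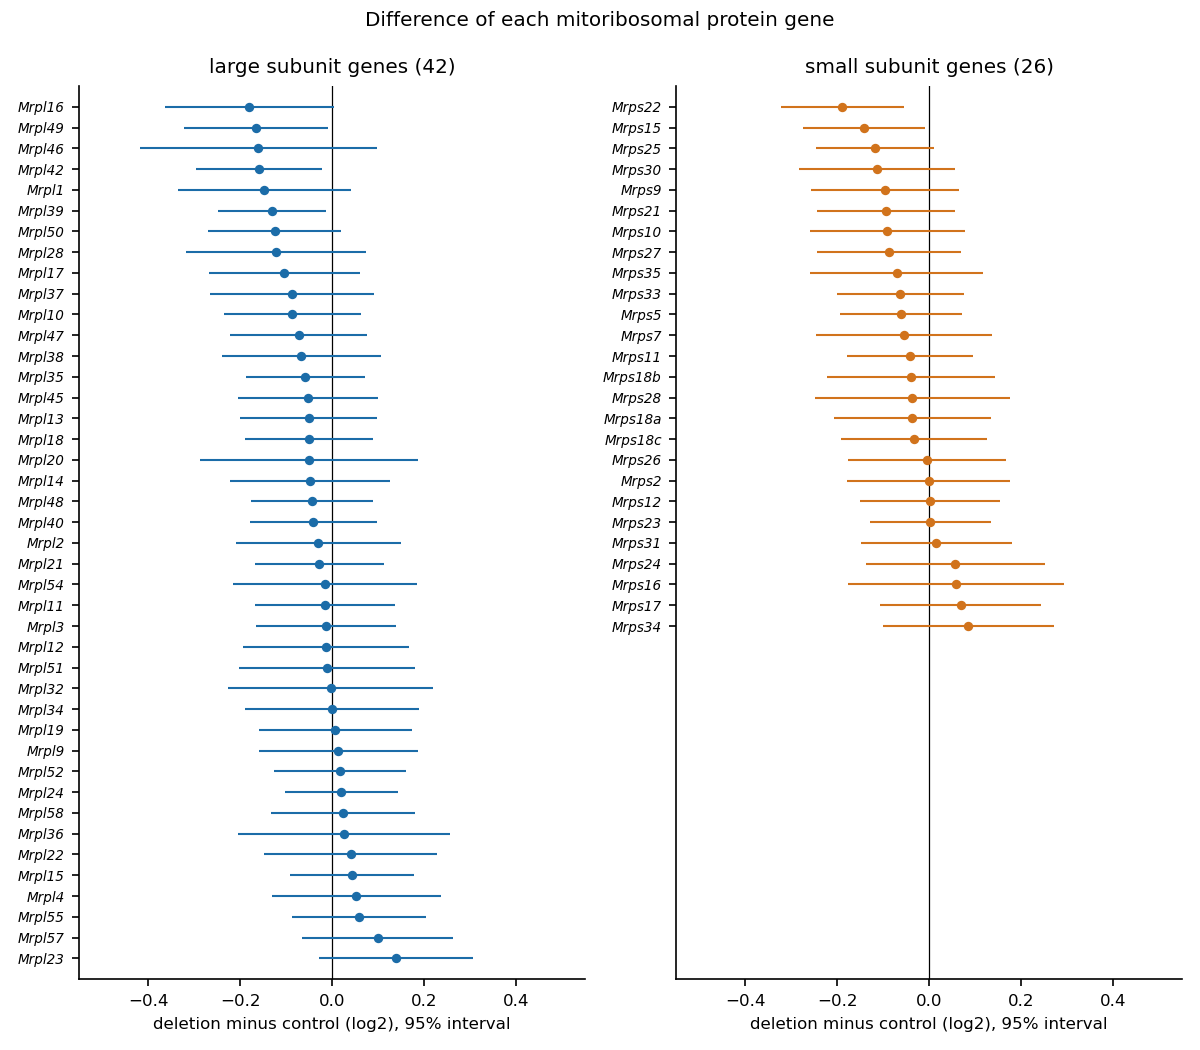
Difference between the groups (deletion minus control, log2, x axis) for each of the 42 large and 26 small subunit genes, with points for the fitted difference and lines for its 95% confidence interval (8 mice per group). Of the 68 points 48 lie left of 0 (61 with arrays centred, 56 after quantile normalization), 5 intervals do not include 0, and each interval stays within 0.5 of 0.

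**Figure D2:**
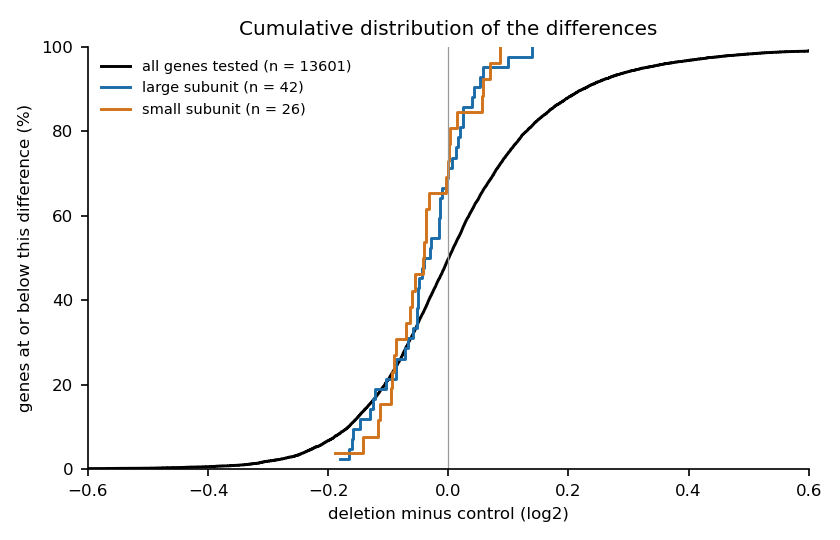
Percent of genes (y axis) at or below each difference (deletion minus control, log2, x axis) for all 13601 genes tested and for the members of each subunit. The axis ends at 0.6 on both sides and leaves out 1.07% of all genes, and both subunit curves reach 100% before 0.2 while the curve of all genes runs on.

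The large and the small subunit gave like values. In the large subunit 29 of 42 genes were lower, with a median difference of -0.036 and 3 genes at an unadjusted p under 0.05. In the small subunit 19 of 26 were lower, with a median of -0.041 and 2 such genes. With arrays centred 39 large subunit genes were lower (median -0.089) and 22 small ones (median -0.094), and after quantile normalization 34 (-0.060) and 22 (-0.077). Over the 42 large subunit genes the controls had a mean of 7.27 ± 0.09 and the deletion mice one of 7.23 ± 0.11 (SD, n = 8 per group). For the 26 small subunit genes it was 7.25 ± 0.07 and 7.20 ± 0.10. Per mouse, the large subunit mean minus the small subunit mean was 0.020 ± 0.048 among controls and 0.024 ± 0.034 with deletion. The groups therefore differed by 0.0035 in this balance, less than the SD of either group. The symbols do not follow the structure in every case, since the proteins of Mrps18a and Mrps30 sit in the large subunit. Counted there, they left medians of -0.039 over 44 large and -0.041 over 24 small subunit genes.

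On the deposited values, mice of the same group differed more than the groups did. In the controls the large subunit mean was lowest in mouse 1 (7.15) and highest in mouse 6 (7.37), with 7.31 in mouse 2, 7.21 in mouse 3, 7.35 in mouse 4, 7.34 in mouse 5 and 7.20 in mice 7 and 8. In the deletion group it was lowest in mouse 3 (7.08) and highest in mouse 2 (7.40), with 7.14 in mouse 1, 7.26 in mouse 4, 7.36 in mouse 5, 7.18 in mouse 6, 7.21 in mouse 7 and 7.20 in mouse 8. On these values the groups overlapped over most of their range, and the lowest mouse, deletion mouse 3, was also the lowest with arrays centred. Deletion mouse 2 was the highest on the deposited values, but its median over all genes tested was also the highest, at 6.28 against 6.06 to 6.19 in the other 15 mice. Its median over all probe sets was instead the lowest of the 16 mice, at 4.43, and centring on the median over all probe sets was not done. With each array centred on the median of the genes tested, deletion mouse 2 was 8th of 16 (7.26) and control mouse 6 was the highest (7.41). The centred mean over all members ran from 7.19 to 7.39 in the controls and from 7.06 to 7.32 in the deletion mice. By it deletion mice 4, 6, 1 and 3 ranked 13th, 14th, 15th and 16th, while deletion mice 5 and 8 ranked 3rd and 5th. On the deposited values the small subunit ranked the extreme mice alike, with deletion mouse 2 highest (7.33), then control mouse 6 (7.32) and deletion mouse 5 (7.32), and deletion mouse 3 lowest (7.07), then deletion mouse 1 (7.10). Deletion mouse 2 lay above the gene's own 16-mouse median in 56 of 68 members and was the highest mouse in 19, and with arrays centred these counts were 34 and 3. Deletion mouse 3 lay above it in 7 members and was the lowest mouse in 20 (6 and 21 with arrays centred). In nuclear genes of the respiratory chain the list mean was lowest in deletion mouse 3 (9.09), beside deletion mouse 6 (9.10), and highest in deletion mouse 5 (9.46), with deletion mouse 2 and control mouse 4 both at 9.38.

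**Figure D3:**
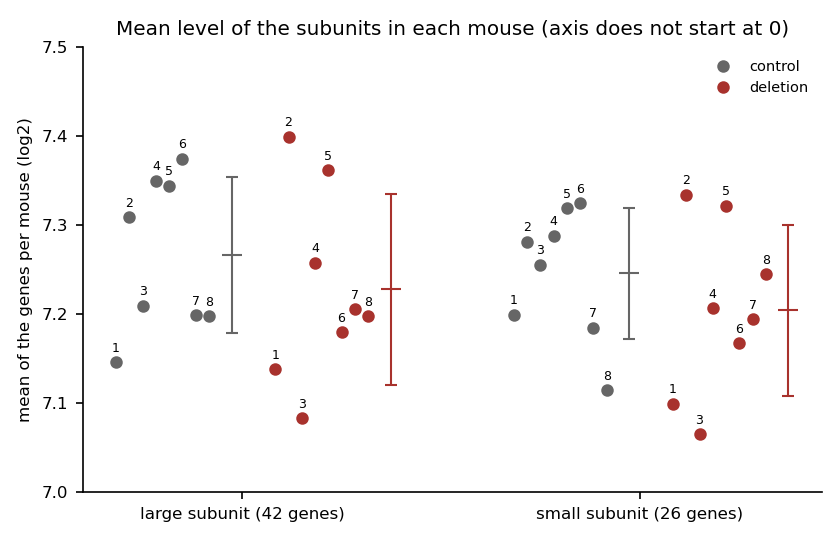
Mean log2 level over the large subunit genes (left) and the small subunit genes (right) in each mouse, numbered as in the labels, with the group mean and SD as bars. Control and deletion mice overlap in both, and deletion mice 2 and 3 are the highest and the lowest of all 16 mice in both on these deposited values. With arrays centred deletion mouse 3 is again the lowest and control mouse 6 is the highest.

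On the deposited values the members varied together between mice. The correlation between 2 members over the 16 mice, after subtracting each group's mean, had a median of 0.363 over all pairs, 0.412 within the large subunit, 0.309 within the small subunit and 0.341 between the subunits. These values describe members that share arrays, RNA and normalization, and they carry no test. They were not computed for other genes or with arrays centred, so they are not shown to be particular to the members. Of the 68 members 48 correlated above 0.5 with the mean of the others, and 0 correlated below 0. Mrpl58, which encodes a peptidyl-tRNA hydrolase that frees stalled ribosomes, followed the others most closely at 0.905, and Mrpl37 came next at 0.876. Mrpl1 (0.0072) and Mrps16 (0.014) followed them least. The SD within the groups had a median of 0.152 over the members and 0.180 over all genes, and it ran from 0.086 in Mrpl39 to 0.266 in Mrpl46.

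**Figure D4:**
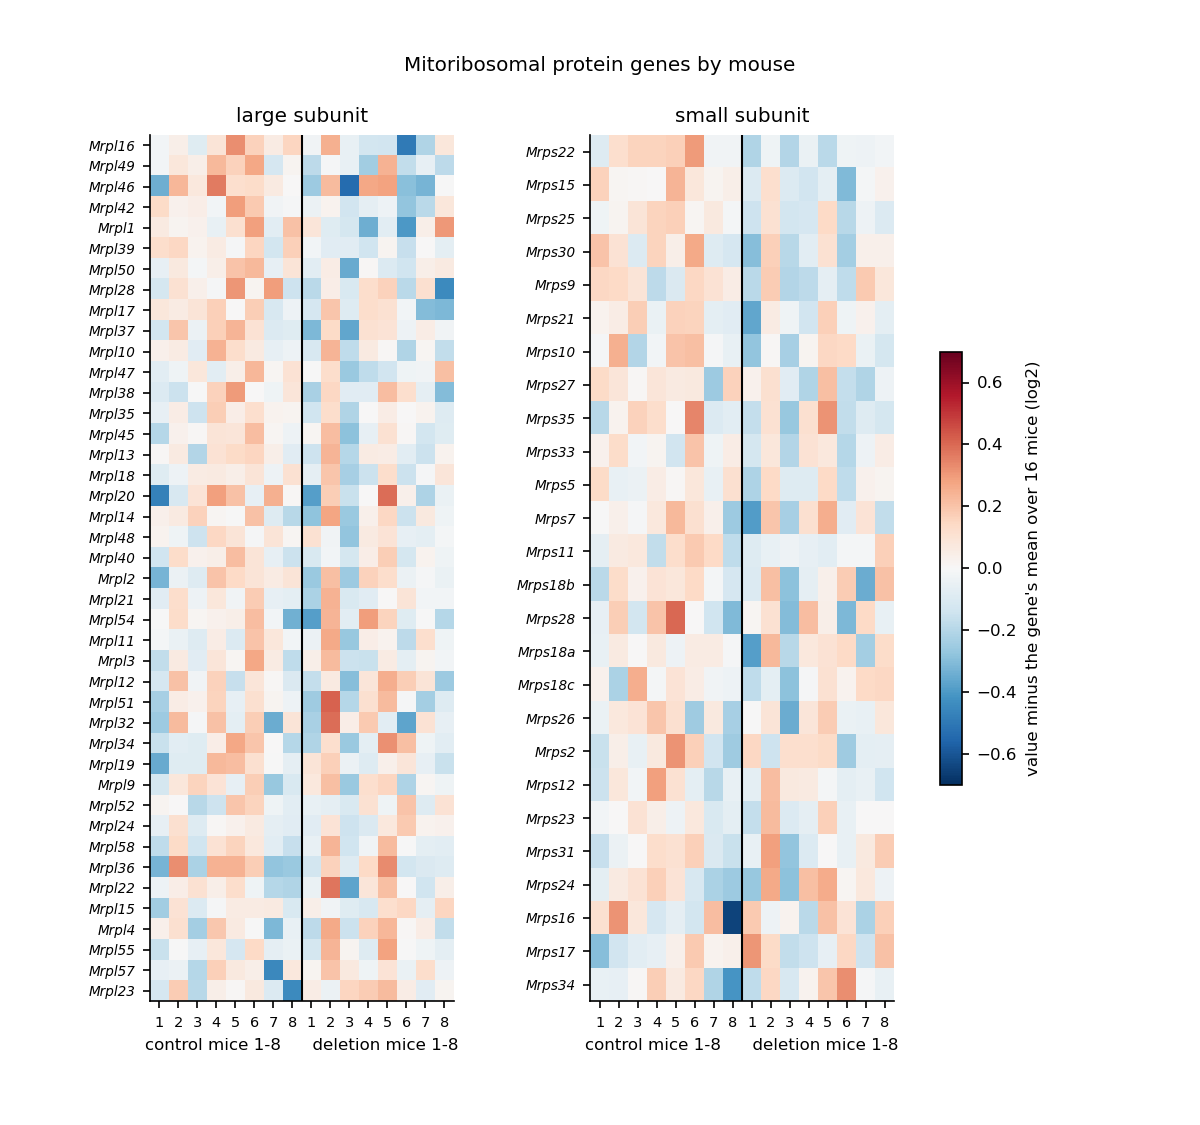
Level of each member in each mouse as the difference from the gene's mean over 16 mice (log2, colour), with genes ordered by the difference between the groups and the mice of each group in label order. Columns stand out more than the boundary between the groups, with deletion mouse 2 mostly above and deletion mouse 3 mostly below the gene means on the deposited values. The median of all genes tested is also highest in deletion mouse 2 (6.28), while its median of all probe sets is the lowest (4.43).

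Mrps22, a small subunit protein specific to mitochondria, had the largest difference toward lower values. Its values ran from 6.91 to 7.30 in the controls, with a median of 7.14, and from 6.79 to 6.98 in the deletion mice, with a median of 6.96. All 8 deletion mice lay below the control median and 3 of them below the lowest control. The means were 7.10 ± 0.13 and 6.91 ± 0.09 (SD, n = 8 each), which differed by -0.19 (SE 0.064). Its limma adjusted p was 0.141, and the exact two-sided permutation p for this single value was 0.0062 before adjustment. Left out 1 mouse at a time, the difference stayed between -0.22 and -0.16 and the limma adjusted p did not go below 0.0924.

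The other 4 members at an unadjusted p under 0.05 were Mrpl42, Mrpl39 and Mrpl49, which are mitochondria-specific large subunit proteins, and Mrps15, a small subunit protein with a bacterial counterpart. Mrpl42 ran from 8.60 to 8.91 in the controls (median 8.66) and from 8.34 to 8.70 in the deletion mice (median 8.57), and 6 deletion mice lay below the lowest control. The difference was -0.16 (SE 0.065, limma adjusted p = 0.217). Mrps15 ran from 9.39 to 9.63 (median 9.42) and from 9.08 to 9.51 (median 9.31), and again 6 deletion mice lay below the lowest control, while deletion mouse 2 exceeded 6 of the 8 controls. Its difference was -0.14 (SE 0.063, limma adjusted p = 0.255). Mrpl39 was the member with the least spread and had all 8 deletion mice below the control median. It ran from 8.49 to 8.79 (median 8.71) in the controls and from 8.46 to 8.64 (median 8.55) in the deletion mice, a difference of -0.13 (SE 0.056, limma adjusted p = 0.240). Mrpl49 ran from 7.04 to 7.43 (median 7.22) and from 6.92 to 7.40 (median 7.04), with deletion mouse 5 at 7.40 apart from the other deletion mice. Its difference was -0.17 (SE 0.075, limma adjusted p = 0.263). Exact permutation of the mice gave unadjusted p-values of 0.0131 for Mrpl42, 0.0148 for Mrps15, 0.0110 for Mrpl39 and 0.0385 for Mrpl49. By that test Mrps25, named after its values were seen, was the sixth member under 0.05, at -0.12 (exact permutation p = 0.0379, limma adjusted p = 0.327). The exact test was run on the members only, so no share of all genes stands beside this count.

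Other members with large differences toward lower values were more variable between mice. Mrpl16, the counterpart of a bacterial protein at the core of the large subunit, ran from 7.88 to 8.29 in the controls and from 7.47 to 8.21 in the deletion mice. Its difference was -0.18 (SE 0.088, limma adjusted p = 0.296), and without deletion mouse 6, the lowest, it was -0.12. Mrpl46, the member with the widest spread, ran from 5.39 to 6.10 and from 5.19 to 6.01, so that the groups overlapped almost fully (-0.16, SE 0.123, limma adjusted p = 0.5263). Mrpl1, the counterpart of the bacterial L1 stalk protein, differed by -0.15 (SE 0.090, limma adjusted p = 0.409). In Mrpl1 deletion mouse 8 (7.65) was the highest of the 16 mice and deletion mouse 6 (6.95) the lowest.

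Mrpl23, whose bacterial counterpart lines the exit of the peptide tunnel, had the largest difference toward higher values. It ran from 6.66 to 7.29 in the controls (median 7.07) and from 7.03 to 7.34 in the deletion mice (median 7.16), where 2 mice exceeded the highest control. The difference was 0.14 (SE 0.080, limma adjusted p = 0.380), and without control mouse 8, the lowest, it was 0.08. Mrpl57 followed at 0.10, which was 0.041 without control mouse 7, and Mrps34 at 0.09, which was 0.032 without control mouse 8. Mrps17 and Mrps16 differed by 0.07 and 0.06, and Mrpl55 by 0.06. Mrps17 differed by 0.029 without deletion mouse 1 and Mrpl55 by 0.021 without deletion mouse 5. The limma adjusted p-values of these 5 ran from 0.545 to 0.836. With arrays centred on the median of the genes tested these differences were between 0.0047 and 0.045, and that of Mrpl23 was 0.086. The sign of Mrps16 rested on control mouse 8 (6.26), without which the difference was -0.03, and a second, dimmer probe set of this gene gave -0.03.

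The 3 brightest probe sets of each subunit differed by between -0.14 and 0.06. Beside Mrpl39 and Mrps15 these were Mrpl18 (-0.05, SE 0.066), Mrpl15 (0.04, SE 0.064), Mrps24 (0.06, SE 0.093) and Mrps23 (0.0027, SE 0.062). Mrps23 ran from -0.029 to 0.027 when 1 mouse was left out. Mrpl15 and Mrps23 read -0.01 and -0.05 with arrays centred, and Mrps23 read -0.03 after quantile normalization. The Mrps18 genes encode related proteins that occupy different places in the ribosome. Mrps18a differed by -0.04 (SE 0.082), Mrps18b by -0.04 (SE 0.087) and Mrps18c by -0.03 (SE 0.076). Leaving out 1 mouse turned each sign, to 0.016 for Mrps18a without deletion mouse 1, 0.0067 for Mrps18b without deletion mouse 7 and 0.0063 for Mrps18c without deletion mouse 3. Mrps18a was tight in the controls, from 7.32 to 7.44, and spread in the deletion mice from 6.98 to 7.60, with 5 of them above and 3 below all controls. A second probe set of Mrps18b read 0.04. Mrps30 differed by -0.11 (SE 0.081, limma adjusted p = 0.489). In the 6 genes with more than 1 usable probe set, the second one had the same sign in Mrpl10, Mrpl12, Mrps17 and Mrps5 and the opposite sign in Mrps16 and Mrps18b.

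The members lie on 17 chromosomes, with 10 on chromosome 11, 8 on chromosome 17 and 6 each on chromosomes 6 and 7. Mrpl37 lies on chromosome 4 near several genes that were lower in the deletion mice. In order of the genes tested its neighbours on 1 side were Ssbp3 (-0.17, limma adjusted p = 0.189), Acot11 (-0.50, limma adjusted p = 0.0146), Ttc4 (-0.64, limma adjusted p = 1.49e-04), Ttc22 (0.08, limma adjusted p = 0.716) and Usp24 (-1.03, limma adjusted p = 3.50e-08). Mrpl37 itself read 7.95 ± 0.15 among controls and 7.86 ± 0.19 with deletion (SD, n = 8 per group), differing by -0.09 (SE 0.085, limma adjusted p = 0.639). On its other side Cyb5rl (-0.09) and Tceanc2 (-0.06) did not pass the threshold either.

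Mrpl46 and Mrps11 are the only pair of members that are next to each other in the order of protein-coding genes, and they pair a large with a small subunit gene. They are transcribed in opposite directions on chromosome 7, with 41 bases between their starts, so that their 300-base windows share 141 bases. The bases between the starts, on the plus strand of GRCm38.p6 at chr7:78783090-78783130, are shown because both promoters share them.
Between the starts of Mrpl46 and Mrps11: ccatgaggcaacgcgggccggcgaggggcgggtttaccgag
Mrpl46 read 5.81 ± 0.20 among controls and 5.65 ± 0.32 with deletion, while Mrps11 read 7.17 ± 0.14 and 7.13 ± 0.08 (SD, n = 8 each). The difference of Mrps11 was -0.04 (SE 0.065, limma adjusted p = 0.791).

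The other genes of mitochondrial translation were read from lists of known factors, and no gene of the lists in this paragraph passed the threshold, also with arrays centred or after quantile normalization. Of the mitoribosomal proteins known by other names 3 were tested. Ptcd3, a small subunit protein, ran lower by -0.25 (SE 0.085, limma adjusted p = 0.149) and Gadd45gip1, a large subunit protein, by -0.20 (SE 0.075, limma adjusted p = 0.184), while Dap3, a small subunit protein, differed by -0.0034. Among 17 translation factors 16 were lower, with a median of -0.10, led by the release factor family gene Mtrf1 (-0.27, limma adjusted p = 0.124) and the initiation factor gene Mtif3 (-0.16, limma adjusted p = 0.311). Of 29 genes for ribosome assembly and rRNA modification 20 were lower (median -0.08), with Ybey at -0.26 (limma adjusted p = 0.123) and Rcc1l at -0.19 (limma adjusted p = 0.212). Of 15 mitochondrial aminoacyl-tRNA synthetases, which charge the tRNAs, 11 were lower (median -0.04), with Aars2 at -0.21 and Iars2 at -0.14. At an unadjusted limma p under 0.05, 2 of the 3, 1 of the 17, 4 of the 29 and 1 of the 15 genes were lower and 0 were higher, where 6.82% of all genes were lower and 10.5% higher at that level. The counts of genes by sign stand beside 49.8% of all genes lower.

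Mitochondrial DNA upkeep and transcription held the gene nearest to the threshold. Of 18 genes 12 were lower, against 49.8% of all genes, with a median of -0.07. With arrays centred 17 were lower (against 64.9% of all genes), and after quantile normalization 15 (against 56.4%). At an unadjusted limma p under 0.05, 4 of the 18 were lower and 0 higher, against 6.82% of all genes lower and 10.5% higher. Tfb2m, the factor that opens mitochondrial promoters for the RNA polymerase, read 7.87 ± 0.14 among controls and 7.63 ± 0.08 with deletion (SD, n = 8 per group), differing by -0.24 (SE 0.066, limma adjusted p = 0.0721). Its limma adjusted p was 0.0444 with arrays centred and 0.0471 after quantile normalization, the 1 gene of the lists on mitochondria that passed under another scaling. Lrpprc, which stabilises mitochondrial messenger RNAs, differed by -0.16 (limma adjusted p = 0.229). The genes encoded by mitochondrial DNA itself, which the ribosome translates or contains, were represented by 10 genes, and all 10 were lower with a median of -0.10 (9 of 10 after quantile normalization, with a median of -0.04). ND2, a complex I subunit, read 13.28 ± 0.07 and 13.13 ± 0.13 (SD, n = 8 each; -0.16, limma adjusted p = 0.206), and COX3 differed by -0.12 (limma adjusted p = 0.257). At an unadjusted limma p under 0.05, 3 of these 10 genes were lower and 0 were higher. Their probe sets lie near the top of the measured range, which ended at 13.8. Of 12 regulators of mitochondrial biogenesis 8 were lower (median -0.04), and the coactivator genes Ppargc1b (-0.19, limma adjusted p = 0.366) and Ppargc1a (0.25, limma adjusted p = 0.421) had opposite signs.

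By sign count the nuclear respiratory chain subunits resembled the members, and the cytosolic ribosomal proteins did not. Of 74 respiratory chain genes 54 were lower (73.0%, against 49.8% of all genes), 0 passed the threshold, and the median was -0.03. At an unadjusted limma p under 0.05, 3 were lower and 3 higher, against 6.82% of all genes lower and 10.5% higher. The smallest p-values were those of Cox6a1 (0.44, limma adjusted p = 0.103) and Atp5mpl (-0.23, limma adjusted p = 0.140). Of 54 cytosolic ribosomal protein genes 13 were lower (24.1%) and the median was 0.07, which was 0.02 with arrays centred, where 21 were lower, and 0.06 after quantile normalization. The sign count of the cytosolic ribosomal genes was the reverse of that of the members, and the difference between the lists was not tested. Rpl3 alone among them passed the threshold, at 0.63 (SE 0.138, limma adjusted p = 0.0253). It was 1 of 54 genes, where 1.53% of all genes tested were higher past the threshold. Among the 54, 5 were higher and 1 was lower at an unadjusted limma p under 0.05.

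**Figure D5:**
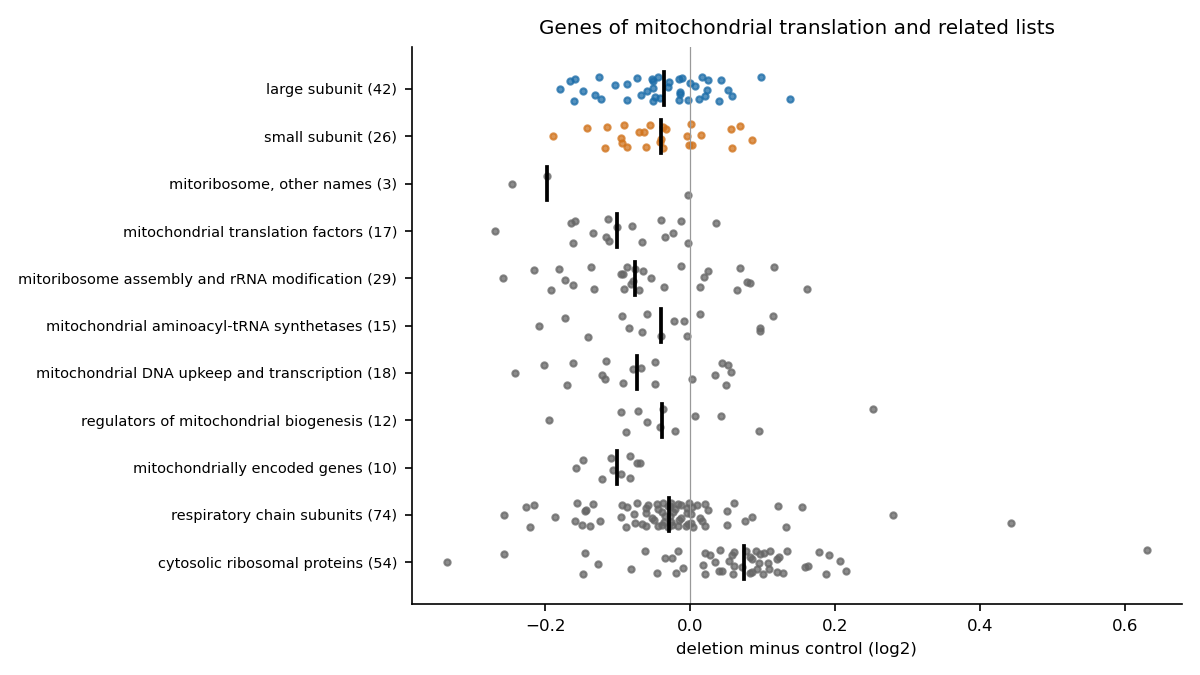
Difference of each gene (deletion minus control, log2, x axis) in the members and in related gene lists, with a black bar at the median of each list and the number of genes tested in parentheses. The medians of the lists of mitochondrial genes lie between -0.20 and -0.03, and that of the cytosolic ribosomal proteins lies at 0.07 (0.02 with arrays centred).

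Among markers of other cells, most endothelial and some macrophage genes were higher past the threshold, where 1.53% of all genes tested were. Each other marker list held 1 or 0 genes past it, and its mean overlapped between the groups. The part of these markers in the values of the members was not tested except where stated. Markers of skeletal muscle (13 genes) were at 12.71 ± 0.04 and 12.72 ± 0.04 in control and deletion mice (SD, n = 8 each), and 0 were under an unadjusted limma p of 0.05. Endothelial markers were higher in the deletion mice for 9 of 12 genes past the threshold, with the list mean at 7.30 ± 0.11 (7.18 to 7.55) against 7.79 ± 0.20 (7.45 to 8.09). The 9 were Ptprb (0.73), Vwf (0.70), Tie1 (0.60), Cdh5 (0.58), Emcn (0.55), Erg (0.52), Esam (0.49), Egfl7 (0.45) and Pecam1 (0.40), with limma adjusted p-values from 0.0028 to 0.0463. With arrays centred, as after quantile normalization, 8 of the 12 passed. With the endothelial list mean as a covariate the median difference was -0.16 in the large subunit genes and -0.13 in the small subunit genes, and 0 members passed the threshold. The list mean itself overlapped between the groups only from 7.45 to 7.55, and 5 genes of the whole table passed with this covariate. Macrophage markers passed the threshold upward in 3 of 9 genes (Itgam, C1qa and Mertk; 2 after quantile normalization), and the list mean ranged from 6.06 to 6.77 in the controls and from 6.36 to 7.63 in the deletion mice. Of 8 adipocyte markers 7 were tested and 1, Fabp4, was higher past the threshold (list mean 6.14 to 6.97 in the controls, 6.26 to 8.03 in the deletion mice). Of 10 Schwann cell markers 5 were tested and 0 passed, with 2 higher at an unadjusted limma p under 0.05 (list mean 5.80 to 7.24 and 5.87 to 7.30). Slow and oxidative fibre markers (8 genes, 0 under an unadjusted limma p of 0.05) had a list mean of 8.75 ± 0.95 and 9.03 ± 0.58.

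Transcripts of liver were high in some mice of both groups, with Alb, the gene for albumin, more than 1 log2 unit above its median of 7.03 in control mice 2, 7 and 8 and deletion mice 1, 2, 4 and 5. The list mean of 10 of 14 liver markers ran from 4.76 to 7.48 in the controls and from 4.75 to 7.92 in the deletion mice. Without these 7 mice, 5 controls and 4 deletion mice remained. The median difference was then -0.12 in the large and -0.10 in the small subunit genes, 60 of 68 members were lower, 9 were lower at an unadjusted p under 0.05 (13.2%), and 0 passed the threshold. Of all genes in that comparison 53.1% were lower and 5.30% were lower at an unadjusted p under 0.05. Mrpl46 differed most, by -0.36 (SE 0.143, limma adjusted p = 0.412), and Mrps22 differed by -0.21 (SE 0.092, limma adjusted p = 0.451). The mice left out include both high and low ones for the members, with means over all members of 7.37 and 7.35 in deletion mice 2 and 5, 7.12 in deletion mouse 1, and 7.19 and 7.17 in control mice 7 and 8, and in that smaller comparison 4 genes passed over all genes tested.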

How the data were processed

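Total RNA of gastrocnemius muscle from 16 mice was labelled from 250 ng and hybridised to Affymetrix arrays, per the labels' protocols. Per the submitters' processing notes, the authors made the deposited log2 values with RMA of the package oligo, 1 value per probe set. Their log base follows from the range of the values (0.329 to 13.8). In the sources used here neither the array's genome build nor a scan date is given, and no scan batch was examined. Array medians ran from 4.43 to 4.61 and correlations between arrays from 0.958 to 0.982.

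The platform annotation gave 1 gene symbol for 23521 of 41345 probe sets, several for 1814 and none for 16010, and those with 1 symbol were used. All 68 members matched RefSeq by Entrez ID. The comparison used limma 3.58.1 (lmFit, eBayes; R 4.3.3) over the 13601 genes tested, with a two-sided test, no term but group, Benjamini-Hochberg adjustment and a threshold of 0.05. The procedure was tested on simulated data with independent noise and with shifts larger than the difference of any member. That test says nothing of the power for differences as small as those of the members. For single values an exact permutation test went through all 12870 ways to split the mice, where the smallest possible p is 1.55e-04. Members and lists were chosen with earlier results of these data known, so no p is given for a list or for a mean over members. The labels call each mouse a biological replicate. The number of mice limits the precision.

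Members named with full values were the 6 largest differences in each direction, the 3 brightest of each subunit, the Mrps18 genes, Mrps30 and Mrpl37, and from each list the genes past the threshold or otherwise the 2 with the smallest p. Genes named for another reason (a motif, a correlation, a neighbour, a second probe set) were chosen after their values were seen. Promoter sequences come from a RefSeq table of GRCm38.p6. Alternatives were other filters, centring, quantile normalization, the handling of several probe sets, a trended robust variance, array weights, a replicate block, a threshold of 0.10, marker lists as covariates, leaving out mice with high Alb and leaving out each mouse. Figures were drawn with matplotlib 3.10.9.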

Additional observations from a re-analysis of the deposited data

Results flagged for a closer look

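Mrps16, a small subunit gene, had 1 mouse far from the others of its group. In control mouse 8 it read 6.26, the next lowest control read 6.78 and the highest 7.22, so that the gap was a share of 0.541 of the group's range, above Dixon's 95% critical value for 8 values. Without this mouse the difference between the groups was -0.03 in place of 0.06. It was the 1 value singled out among 52 groups of values examined, and chance alone singles out about 1 in 20 groups.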

How the results depend on the processing

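Under all 30 alternatives, the 16 fits without 1 mouse and an adjusted p under 0.10 included, 0 members passed the threshold in either direction. Of 688 values of the named members under an alternative, 664 had the sign of the main value, 24 the other sign and 0 passed.

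The count of all genes past the threshold, 249 in the main comparison, was 137 with no filter, 505 at an adjusted p under 0.10, 131 with the liver list, 149 with the slow fibre list and 5 with the endothelial list as a covariate, and 4 without the mice with high Alb. Without 1 mouse it ran from 107 (without deletion mouse 6) to 680 (without deletion mouse 8). Centring gave 126 higher and 67 lower genes and quantile normalization 142 and 55, against 208 and 41.

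The count of members at an unadjusted p under 0.05 was 5 (7.35%, against 6.82% of all genes lower at that level), all of them lower. It was 11 with arrays centred (16.2% against 13.7%), 10 after quantile normalization (14.7% against 9.51%), 3 with the liver list (4.41% against 5.57%), 11 with the endothelial list (16.2% against 5.08%) and 9 without the mice with high Alb (13.2% against 5.30%), again all lower. It ran from 1 (without deletion mouse 6) to 7 (without deletion mouse 2) without 1 mouse. In 2 alternatives a member was higher at this level. With no filter, 5 of 71 members were lower and 1 was higher, against 6.53% and 7.04% of all genes. Without control mouse 2, 3 members were lower and 1 was higher, against 6.71% and 10% of all genes. With the replicate number as a block the count of members was 2 (2.94% against 7.25%), and 213 genes passed over the whole table. Same-numbered mice correlated between -0.083 and 0.250 and 4 of 16 mice correlated best with their own number, so the numbers are not taken to pair the mice.

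With the endothelial list as a covariate the median difference was -0.164 in large and -0.133 in small subunit genes, and large minus small was -0.0687. Without 1 mouse the medians ran from -0.0636 to -0.0113 and from -0.0720 to -0.0218, large minus small from -0.0070 (without control mouse 1) to 0.0136, and from 41 to 55 members were lower. The cause of these changes was not tested. Dim probe sets may show compressed differences, which was not examined here.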
